A study of Mus musculus with 10 samples.

Results

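The comparison of estrus with diestrus in wild-type luminal cells of the mouse mammary gland used 5 of the 10 libraries of the study, 3 collected at estrus and 2 at diestrus. Genes whose mean over the 10 libraries reached 10 normalized read counts entered it, which left 15180 of 26312. The wild-type mice (WT) were labelled RSK2(+/+), where RSK2 is a kinase downstream of ERK that is encoded by Rps6ka3. The other libraries, 3 at estrus and 2 at diestrus, were labelled RSK2(-/-) and are called KO here, although their titles also carry the word WT. All mice were C57BL/6J, 12 weeks old, with a cycle that was followed until harvest, and no hormone or drug was named for any group. Cells came from the 4th mammary glands and were sorted for high EpCAM, low CD49f and Sca-1 without CD49b, and the RNA had a RIN of 8. The labels do not say whether each library came from a separate mouse or from a pool, so each test measures the spread between libraries, which may be technical.

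The estrous cycle exposes the mammary epithelium to ovarian hormones in sequence. Estrogen peaks just before estrus, and progesterone from the corpora lutea is high in diestrus. The luminal cells of this gate carry the receptors for both hormones and for prolactin, and they pass the signal to neighbouring cells through secreted factors such as amphiregulin, WNT4 and RANKL.

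No gene passed the test between estrus and diestrus in WT cells (0 of 15180, 0%). The test was limma on log2(value + 1) with Benjamini-Hochberg adjustment over all 15180 genes at 0.05, and the smallest adjusted p was 0.0824, for Lrmda. Without adjustment, 588 genes (3.87%) were under 0.05, where uniform p-values would give 759. Of these, 304 (2%) had higher values at estrus and 284 (1.87%) had lower ones. The groups did not overlap in 2687 genes (17.7%), 1323 with higher and 1364 with lower estrus values. With so few libraries per stage, a random order of the libraries would separate the groups in a larger share of genes. A lack of overlap in a gene, here and below, is thus a description and by itself no evidence of a stage difference. All differences below are therefore given as values, with the standard error (SE) of the log2 difference, and not as changes. In bulk libraries such as these, fewer cells of a type and less RNA per cell cannot be told apart.

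The precision bounds what could have been seen. The 95% interval of the stage difference lay within 2-fold in both directions in 10790 genes (71.1%). Its median width was 0.519 log2 units to each side, which is 1.43-fold. It was 1.05 among genes with a mean of 10 to 50 normalized counts, 0.46 from 50 upward and 0.387 from 1000 upward. Only 328 genes had an estimated difference over 2-fold, and 92 of them had a mean of at least 50. With 2 diestrus libraries, the spread was shared with the other groups in the fit.

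The 3 estrus libraries differed from each other about as much as libraries of different stages did, or more. The median absolute log2 difference was 0.305, 0.316 and 0.267 for the 3 pairs of estrus libraries and 0.202 for the pair of diestrus libraries. It was between 0.209 and 0.273 for the 6 pairs across stages. Genes over 2-fold apart numbered 1111 to 1356 within estrus, 728 within diestrus and 747 to 1296 across stages.

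**Figure D1:**
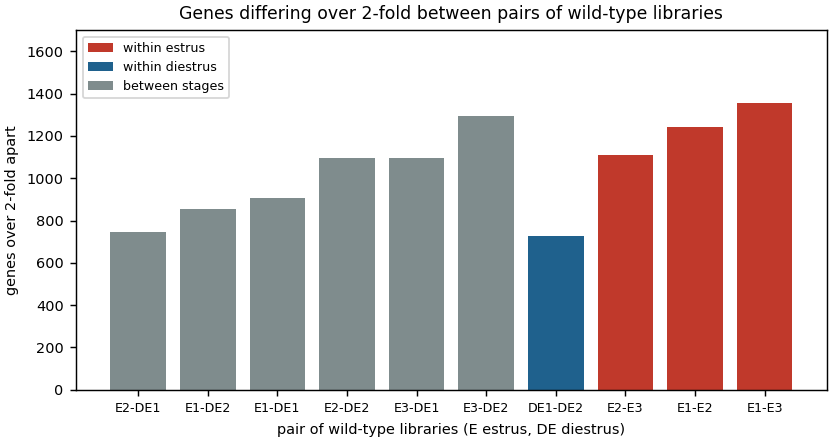
Number of tested genes (vertical axis) that differed over 2-fold between each pair of WT libraries, with E for estrus and DE for diestrus. The 3 pairs within estrus stand at 1111 to 1356 genes, within or above the range of 747 to 1296 for the 6 pairs across stages.

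The WT libraries summed to between 14186921 and 15307238 normalized counts, with 21051 to 21299 genes above 0. The slope of each library's log2 deviation on log2 transcript length was -0.025 in WT estrus 1 and 0.0285 to 0.0391 in the other 4. The epithelial sort marker Epcam was at 35421 to 44508, and Itga6 (CD49f), Ly6a (Sca-1) and Itga2 (CD49b) were at 3789 to 5124, 14488 to 28010 and 195 to 251. Rps6ka3 was at 128 to 165 in WT and at 156 to 165 in the libraries labelled KO. A value per gene does not show whether the transcript was intact, and the deleted part of the gene is not given in the labels.

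Markers of other cell types were also measured, beside a median level of 255 over all tested genes. The summed levels of 9 luminal progenitor and alveolar markers were 2463 to 2770 at estrus and 1782 and 2831 at diestrus. Sums over 8 basal and myoepithelial markers were 441 to 1227 and 445 and 750. For 6 fibroblast markers they were 654, 1050 and 1610 at estrus and 648 and 580 at diestrus, nearly all of it Dcn. For 3 erythroid markers they were 53, 421 and 296 against 132 and 58. Sums were 580 to 972 against 601 and 675 for 5 endothelial markers, 292 to 404 against 385 and 416 for 8 macrophage markers, and 58 to 92 against 130 and 107 for 3 lymphocyte markers. Most of the endothelial sum was Vwf, at 548, 949 and 642 against 507 and 630. Pecam1, another endothelial marker, was lower at estrus without overlap, at 25, 22 and 27 against 76 and 42. Most of the lymphocyte sum was Trbc2, at 90, 57 and 68 against 129 and 106. The adipocyte marker measured was at 0 or 1. The milk protein gene Csn2 was at 0 in all 5 WT libraries. The part of these cells in the values below was not tested.

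The same contrast in the KO libraries, which share no library with the WT contrast but share its estimate of the spread, called 2524 genes (16.6%), with 1165 higher (7.67%) and 1359 lower (8.95%) at estrus. This count was 39 without KO diestrus 2, 151 without KO diestrus 1 and 1331 without KO estrus 1. The length slope was -0.116 to -0.0316 in the KO estrus libraries and 0.0557 to 0.0577 in the KO diestrus libraries. With the trend on length and GC content removed, 1489 genes were called.

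The 12 genes with the smallest p among those higher at estrus were Lrmda, Cxcl1, Reg3g, Slc15a2, Cep85, Phf11d, Cntfr and 5 copies of the Plac9 and Tmem254 genes. In both directions, only genes with a mean of at least 50 in WT, no predicted-gene symbol and no overlap between WT stages could enter this ranking. Lrmda, a gene linked to melanocyte differentiation, stood at 67, 83 and 96 normalized counts in the estrus libraries and at 10 and 4 in the diestrus libraries. The estrus libraries were all above the diestrus libraries, and the log2 difference was 3.47 (SE 0.45, adjusted p = 0.0824). In the KO libraries Lrmda was at 30, 59 and 84 at estrus and 54 and 57 at diestrus, so there the stages overlapped.

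Cxcl1, a chemokine that attracts neutrophils, was at 1195, 919 and 1299 at estrus and at 334 and 193 at diestrus. Its estrus values were 4.42-fold higher (log2 difference 2.14, SE 0.33, adjusted p = 0.137), without overlap. Reg3g, a secreted antimicrobial lectin, was at 318, 369 and 545 against 163 and 129, a log2 difference of 1.46 (SE 0.26, adjusted p = 0.16). Neither gene passed the test in WT, but both passed it in the KO libraries. There they were higher at estrus by 1.07 (SE 0.33, adjusted p = 0.0452) and 0.94 (SE 0.26, adjusted p = 0.0299) on the log2 scale.

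Slc15a2, a transporter of small peptides, was at 158, 196 and 298 at estrus and at 55 and 12 at diestrus. The 2 diestrus libraries differed by over 4-fold, and both lay below every estrus library (log2 difference 2.97, SE 0.50, adjusted p = 0.137). Cep85, a centrosomal protein, was at 4302, 4397 and 3922 against 2339 and 726, with the same order of the 2 diestrus libraries (log2 difference 1.69, SE 0.36, adjusted p = 0.455). Phf11d, a gene of an interferon-responsive family, was at 316, 362 and 394 against 207 and 162 (log2 difference 0.95, SE 0.18, adjusted p = 0.238). Cntfr, the receptor subunit that binds ciliary neurotrophic factor, was at 266, 266 and 256 against 157 and 111 (log2 difference 0.99, SE 0.21, adjusted p = 0.455). In all 4 genes the estrus and diestrus libraries did not overlap, as the choice required.

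The other 5 of these 12 genes were copies of a repeated segment of chromosome 14. Plac9a (chr14:25887506-25903100, GRCm38, as for all positions here) and Plac9b (chr14:26167405-26182480) encode small secreted proteins. Tmem254a (chr14:25923300-25927672), Tmem254b (chr14:26203369-26207041) and Tmem254c (chr14:26063919-26067355) encode membrane proteins. Of the 50-base words of the longest Plac9a transcript, 65.8% also occurred in Plac9b, and 83.1% of those of Tmem254b occurred in Tmem254c. Reads of such copies cannot be assigned with certainty, so the 5 genes are not 5 separate observations, although each is counted as a gene in the counts given here. The RefSeq promoters of Plac9a (chr14:25902922-25903143), the predicted gene Gm9780 (chr14:26042688-26042909) and Plac9b (chr14:26182302-26182523), all on the minus strand of GRCm38.p6, share an identical stretch of 222 bases. It is shown because it makes visible how alike the copies are.
shared promoter stretch of Plac9a, Gm9780 and Plac9b: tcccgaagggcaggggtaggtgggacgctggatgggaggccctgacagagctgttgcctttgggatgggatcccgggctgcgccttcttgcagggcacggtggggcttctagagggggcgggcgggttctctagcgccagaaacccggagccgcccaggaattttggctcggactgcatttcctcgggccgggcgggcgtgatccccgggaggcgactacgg

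Plac9b was at 382, 320 and 274 at estrus and at 111 and 77 at diestrus, a log2 difference of 1.79 (SE 0.29, adjusted p = 0.137). Tmem254a was at 4846, 4364 and 3821 against 2438 and 2119, a log2 difference of 0.93 (SE 0.15, adjusted p = 0.137). Both were lowest in the 2 WT diestrus libraries, and the 5 KO libraries stood at 396 to 754 for Plac9b and 3921 to 5741 for Tmem254a. For Plac9b the stage difference in the KO libraries was 0.04 (SE 0.29) on the log2 scale. For Tmem254a it was 0.43 (SE 0.15, adjusted p = 0.0684 in limma), with higher values at estrus and no overlap in KO.

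On the side of lower values at estrus, 2 histone genes of the cluster on chromosome 13 had the largest differences of the 12 with the smallest p. Hist1h2bf, an H2B gene (chr13:23573736-23574196), was at 65, 31 and 37 at estrus and at 578 and 1152 at diestrus. The diestrus libraries were 18.9-fold higher (log2 difference -4.24, SE 0.80, adjusted p = 0.238). Hist1h2be, another H2B gene (chr13:23583670-23621124), was at 234, 201 and 237 against 651 and 1318 (log2 difference -2.05, SE 0.42, adjusted p = 0.411). High values of both were also seen in 1 KO estrus library, with 576 for Hist1h2bf and 686 for Hist1h2be, while the other 4 KO libraries were at 38 to 57 and 172 to 230. Of the 50-base words of the Hist1h2bf transcript, 25.2% also occurred in Hist1h2be, 47.8% in Hist1h2bg and 44.2% in Hist1h2bc, so the levels of these genes are uncertain.

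Wdfy1, an endosomal adaptor of innate immune receptors, was at 553, 1063 and 472 at estrus and at 1945 and 1797 at diestrus (log2 difference -1.52, SE 0.29, adjusted p = 0.238). Alox15, a lipoxygenase that oxidizes polyunsaturated fatty acids, was at 1244, 765 and 464 against 2367 and 1810 (log2 difference -1.44, SE 0.31, adjusted p = 0.476). Nnt, the mitochondrial transhydrogenase that makes NADPH and of which C57BL/6J mice are known to carry a shortened gene, was at 250, 192 and 287 against 530 and 617 (log2 difference -1.25, SE 0.28, adjusted p = 0.515). In these 3 genes the 2 WT diestrus libraries were the highest of each gene's WT libraries. For Alox15 and Nnt they were the highest of all 10, since the KO libraries stood at 368 to 536 and 116 to 303.

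Dynlt1b, a dynein light chain (chr17:6430112-6436296), was at 2135, 2153 and 2051 at estrus and at 3242 and 3214 at diestrus (log2 difference -0.61, SE 0.14, adjusted p = 0.476). Its neighbour Tmem181b-ps, a transcribed pseudogene (chr17:6438524-6467022), was at 166, 196 and 213 against 342 and 375 (log2 difference -0.91, SE 0.18, adjusted p = 0.279). Dynlt1b shares 76.3% of its 50-base words with Dynlt1a and 76.3% with Dynlt1c, so its level is uncertain. The KO libraries moved the other way for Dynlt1b, which rose at estrus by 0.71 (SE 0.14, adjusted p = 0.00911).

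The other 5 genes with the smallest p among those lower at estrus encode proteins of growth factor signalling, membrane traffic and epithelial differentiation. Crim1, a membrane protein that binds BMPs, was at 625, 771 and 490 against 1203 and 1147 (log2 difference -0.93, SE 0.20, adjusted p = 0.476). Kif5c, a kinesin motor, was at 2821, 2117 and 1962 against 3312 and 4251 (log2 difference -0.72, SE 0.18, adjusted p = 0.81). Snx13, a sorting nexin, was at 941, 1022 and 801 against 1320 and 1628 (log2 difference -0.68, SE 0.17, adjusted p = 0.816). Grhl3, a transcription factor of epithelial barrier formation, was at 87, 80 and 75 against 134 and 140 (log2 difference -0.76, SE 0.20, adjusted p = 0.867). These 4 genes did not pass the test in WT but passed it in the KO libraries. There they were lower at estrus by 1.25, 0.85, 0.98 and 1.21 on the log2 scale (adjusted p between 0.00584 and 0.0133). Peak1, a pseudokinase of the cytoskeleton, was at 254, 319 and 221 against 449 and 534 in WT (log2 difference -0.90, SE 0.22, adjusted p = 0.78).

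**Figure D2:**
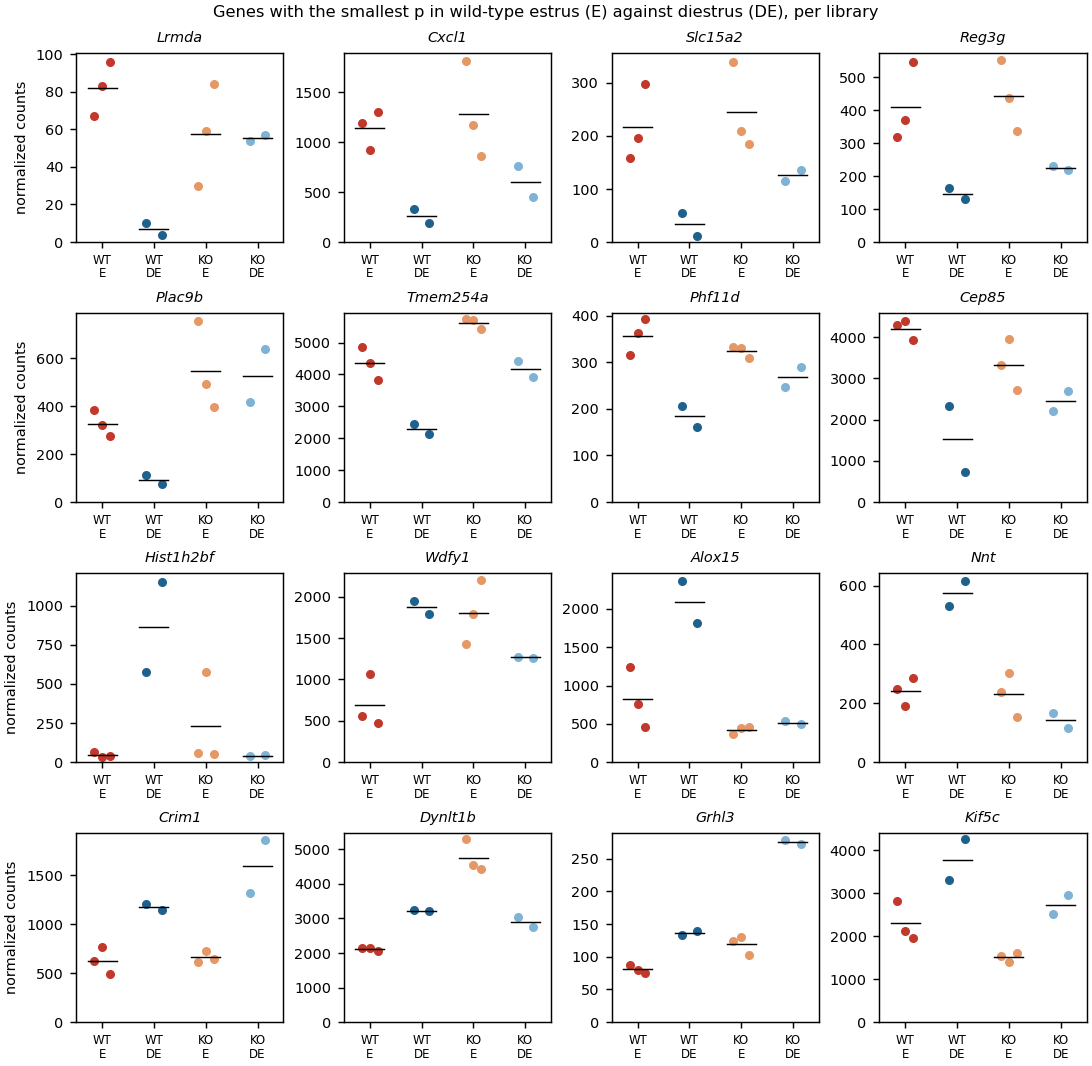
Normalized counts per library (vertical axes, starting at 0) for 16 of the 24 genes with the smallest p, in WT and KO libraries at estrus (E) and diestrus (DE), where bars are group means. WT estrus and WT diestrus points do not overlap in any of the 16 panels, as the choice of genes required. The KO groups overlap or order differently in panels such as Lrmda, Plac9b and Dynlt1b.

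In 16 of these 24 genes the 2 WT diestrus libraries stood apart from the other 8 libraries of the study, KO diestrus included. They were below all 8 in 11 genes, among them the 5 Plac9 and Tmem254 copies, Lrmda, Cxcl1 and Slc15a2, and above all 8 in 5 (Alox15, Hist1h2bf, Kif5c, Nnt and Peak1). Among all tested genes this held for 574 (3.78%). The 24 genes were chosen for no overlap between WT diestrus and WT estrus, a condition not set for all tested genes. Part of the separation was thus fixed by the choice, and the 2 shares are not alike. The labels give no litter or breeding record. For genes that set the 2 WT diestrus libraries apart, stage and any other property of the mice behind them cannot be told apart.

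The receptors for estrogen, prolactin and progesterone were measured in every library. Esr1, the estrogen receptor, was at 1800, 3334 and 1865 at estrus and at 2786 and 2105 at diestrus. The stages overlapped, and the log2 difference was -0.11 with a 95% interval from -0.72 to 0.49. Prlr, the prolactin receptor, was at 40185, 48303 and 33645 against 31495 and 44371, also with overlap (log2 difference 0.11, interval -0.42 to 0.63). Pgr, the progesterone receptor and itself a target of estrogen, was at 1092, 902 and 1085 against 1203 and 1688. All 3 estrus libraries lay below both diestrus libraries, with a log2 difference of -0.48 (interval -0.92 to -0.04), and the adjusted p in limma was 1. In the KO libraries Pgr was at 986, 920 and 748 at estrus and at 994 and 1384 at diestrus, also lower at estrus without overlap (log2 difference -0.42, adjusted p = 0.169).

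The secreted signals of hormone-sensing cells gave unlike pictures. Areg, the EGF receptor ligand amphiregulin through which estrogen drives ductal growth, was at 16776, 17891 and 17417 at estrus and at 22596 and 22754 at diestrus. The WT values were tight within each stage and did not overlap, 17361 ± 560 (SD, n = 3) against 22675 ± 112 (SD, n = 2). The log2 difference of -0.39 nevertheless had an interval from -1.03 to 0.26, since the spread in the fit came from all 4 groups and the KO estrus libraries were at 25165, 22050 and 10637. Wnt4, a progesterone-induced signal to basal cells, was at 2611, 3153 and 2593 against 2261 and 2583 (log2 difference 0.20, interval -0.14 to 0.54). In the KO libraries Wnt4 rose at estrus by 0.64 (SE 0.16, adjusted p = 0.0204), and the difference between the genotypes of -0.44 had an adjusted p of 0.381.

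Tnfsf11, which encodes RANKL, the progesterone-induced signal for proliferation of neighbouring cells, was below the minimum for testing. It stood at 0, 38 and 10 at estrus and at 1 and 4 at diestrus. Calca, which encodes calcitonin and is a classical progesterone target, was at 2, 156 and 119 against 16 and 7 (log2 difference 1.72, interval -1.45 to 4.88). Both genes were low in WT estrus 1 and in both diestrus libraries and higher in the other 2 estrus libraries. Greb1, an estrogen-induced cofactor of the estrogen receptor, ran the other way in those libraries, at 173, 51 and 2 against 109 and 248 (log2 difference -2.46, interval -5.12 to 0.20).

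**Figure D3:**
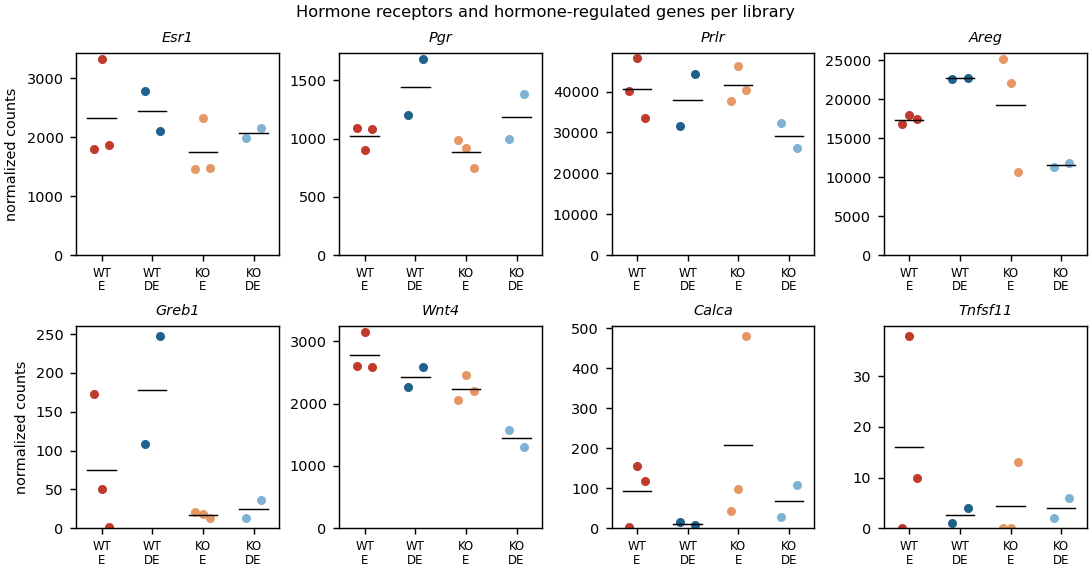
Normalized counts per library (vertical axes, starting at 0) of 8 hormone receptor and hormone-regulated genes in WT and KO libraries at estrus (E) and diestrus (DE), where bars are group means. Pgr and Areg have all 3 WT estrus points below both WT diestrus points, and Calca, Tnfsf11 and Greb1 differ most among the WT estrus libraries themselves.

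WT estrus 1 stood apart from the other 2 estrus libraries. Among 11805 genes with a mean of at least 50 over the WT libraries, 237 were over 2-fold away from both of the others in WT estrus 1, 64 higher and 173 lower. The same count was 94 in WT estrus 2 and 125 in WT estrus 3, and 208 genes differed over 2-fold between the 2 diestrus libraries. The library in question was nearer to the diestrus mean than to the other estrus libraries in 91 of the 237 genes for WT estrus 1, in 33 of 94 for WT estrus 2 and in 19 of 125 for WT estrus 3. The genes named in this paragraph were chosen after their values were seen and are given without a test. Aoc1, a secreted diamine oxidase, was at 5984, 587 and 569 at estrus and at 4225 and 8273 at diestrus. Ptpn5, a tyrosine phosphatase, was at 2439, 238 and 152 against 974 and 2831. Gpx3, the secreted glutathione peroxidase, was at 274367, 45024 and 45260 against 67466 and 196024. Ccn5, an estrogen-responsive matricellular protein, was at 196, 51 and 55 against 153 and 187. In all 4, WT estrus 1 was within or above the diestrus range and the other 2 estrus libraries were below it. Defb1, an epithelial antimicrobial peptide, was at 302, 1938 and 3088 against 675 and 1836.

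Without WT estrus 1, 5 genes passed the test, all lower at estrus. They were Aoc1 (log2 difference -3.35, adjusted p = 0.0283), Ptpn5 (-3.12), the predicted gene Gm7932 (-3.28), Alox15 (-1.79) and Arhgap22 (-1.99), the last 4 with adjusted p = 0.0462. Arhgap22, a GTPase-activating protein for Rac, was at 260, 79 and 98 against 384 and 322. Without WT diestrus 1 the genes that passed were 6, all higher at estrus: Cep85, Slc15a2, Cnbd2, Lrmda, H2-Q4 and Gm42031 (adjusted p between 0.00477 and 0.0467). That comparison sets 1 diestrus library against 3 estrus libraries and assumes that it varies like the other groups. Without WT estrus 2 it was Wdfy1 (log2 difference -1.87, adjusted p = 0.0256), and without WT estrus 3 or WT diestrus 2 it was 0, with 479 and 299 genes at an unadjusted p under 0.05 in limma.

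Some keratins of differentiated and cornified epithelia varied by over 10-fold within a stage, and they and the other genes of this paragraph were chosen after their values were seen and are given without a test. Krt77 was at 2199, 12 and 1415 at estrus and at 14 and 2129 at diestrus, so both stages held a library near 0. Krt79 was at 50, 34 and 1447 at estrus and at 1869 and 2148 at diestrus. Krt76 was at 0, 0 and 4 at estrus and at 4 and 1296 at diestrus. Krt77 had the same 2 levels in the KO libraries, at 18, 1755 and 8 at estrus and at 1589 and 1370 at diestrus. Clca1, a secreted regulator of mucus and chloride transport, was high in WT estrus 3 alone, at 304, 184 and 1613 against 128 and 147. Dmbt1, a mucosal defence glycoprotein, was at 44033, 52800 and 14626 against 50617 and 110165.

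Across the 46 gene lists, 45 had a tested member and none had a member that passed. Of 941 listed genes tested, 37 (3.93%) were at an unadjusted p under 0.05 in limma, beside 3.87% of all genes. Among the 40 lists with at least 5 tested members the median log2 difference ran from -0.28 to 0.46, and it was within 0.2 of 0 in 33. The median over all tested genes was -0.004. List members named below for an unadjusted p under 0.05 were chosen after their values were seen.

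The estrogen-induced list had 23 tested members, 8 of them above 0, with a median log2 difference of -0.19, and its members at an unadjusted p under 0.05 were Pgr and Ccn5, both lower at estrus. The median was -0.10 without WT estrus 2 and -0.09 without WT estrus 3 or WT diestrus 2, and the members lower at that p numbered 1 to 4 with any 1 WT library left out. The progesterone-induced and paracrine list had 9 of 15 members above 0 and a median of 0.13, which was -0.11 without WT diestrus 1, 0.02 without WT estrus 2 and 0.29 without WT diestrus 2. Among 13 prolactin and STAT5 genes the median was -0.02, and -0.13 to 0.05 with any 1 WT library left out. There, Stat5a, the transcription factor that carries the prolactin signal, was at 3510, 3212 and 2909 against 3967 and 4862 (log2 difference -0.46, SE 0.17, adjusted p = 1). The 13 EGF family and ErbB genes had a median of -0.07, which was -0.37 without WT estrus 2, -0.24 without WT diestrus 2 and 0.08 without WT estrus 3. Of the 22 hormone-sensing luminal identity genes, 12 were above 0, with a median of 0.06. Krt8 and Krt18, the keratin pair of luminal cells, had log2 differences of -0.04 (SE 0.30) and 0.16 (SE 0.27).

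Most mitotic genes had higher mean values at estrus, by small amounts, but for the list as a whole the stages overlapped. The mitosis list had 21 of 23 members above 0 and a median of 0.3. The mean log2 deviation of its members, each from its mean over the 10 libraries, was -0.78, -0.0 and 0.28 in the estrus libraries. In the diestrus libraries it was -0.21 and -1.04, so WT estrus 1 lay below WT diestrus 1. Foxm1, the transcription factor of mitotic genes, was at 12, 11 and 19 against 8 and 4, and Stmn1, a microtubule regulator, was at 76, 91 and 101 against 76 and 43. The list median was 0.64 without WT estrus 1, 0.67 without WT diestrus 1 and 0.07 without WT diestrus 2, so its size rested on single libraries. In the KO libraries the median was 1.42 and 10 of the 23 members rose at estrus, beside 7.67% of all genes. The 25 S phase genes had a WT median of 0.05 and the 18 G1 genes a median of 0.06.

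Inducible genes of immediate-early, interferon and cytokine responses also had more members above 0 than below it. The immediate-early list had 26 of 30 above 0 and a median of 0.17, which was 0.10 without WT diestrus 1 and 0.29 without WT diestrus 2. These omissions left 0 and 4 members at an unadjusted p under 0.05. Its members at an unadjusted p under 0.05 were Ccn1, a matricellular protein, at 20588, 15976 and 10828 against 8500 and 10897, and Btg2, an antiproliferative factor, at 7491, 9894 and 8894 against 5269 and 6899. The interferon list had 16 of 19 above 0 and a median of 0.36, which was 0.15 without WT estrus 2 and 0.47 without WT estrus 3. The mean log2 deviation of its members was 0.23, 0.48 and -0.36 in the estrus libraries and -0.16 and -0.44 in the diestrus libraries. For the list as a whole the stages thus overlapped. Irf7, a master regulator of type I interferon genes, was at 257, 366 and 239 against 173 and 130, and Stat2, which carries the interferon signal, was at 1007, 977 and 931 against 713 and 719. Oas1a, an antiviral enzyme, was at 97, 127 and 103 against 84 and 60. The cytokine and chemokine list had 14 of 21 above 0 and a median of 0.2 (0.15 to 0.32 with any 1 WT library left out), with Cxcl1 and Tnfsf10 at an unadjusted p under 0.05. Tnfsf10, the death ligand TRAIL, was at 57, 71 and 80 against 20 and 29.

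Most protein folding and glycolysis genes had lower mean values at estrus, but for both lists as a whole the stages overlapped. The mean log2 deviation of the protein folding genes was 0.01, -0.25 and 0.15 at estrus against -0.02 and 0.52 at diestrus. For the glycolysis genes it was 0.26, 0.15 and -0.16 against 0.14 and 0.41. Of the 30 endoplasmic reticulum chaperone and unfolded protein response genes, 1 was above 0, and the median was -0.23. Hyou1, a chaperone, was at 854, 795 and 913 against 1019 and 1572, and Trib3, a stress-induced pseudokinase, was at 640, 381 and 744 against 743 and 1011. The major chaperone Hspa5 overlapped between stages, at 66730, 50825 and 89400 against 66653 and 90920. The median of the list was -0.55 without WT diestrus 1 and -0.01 without WT diestrus 2, so it rested on that library. In the KO libraries the median was -0.66 and 12 of the 30 members fell at estrus, beside 8.95% of all genes. Of 21 glycolysis genes 4 were above 0, with a median of -0.09, and the glucose carrier Slc2a1 was at 2623, 3103 and 2168 against 3561 and 3931. That median was 0.01 without WT estrus 3 and 0.03 without WT diestrus 2.

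Large housekeeping lists had small and narrow differences. The 85 cytosolic ribosomal protein genes had a median of -0.09 with quartiles of -0.13 and -0.06. The 78 nuclear oxidative phosphorylation genes had a median of 0.09 (quartiles 0.02 and 0.14), with 63 above 0, and the 78 mitochondrial ribosomal protein genes had the same median. The 13 mitochondrially encoded genes had a median of 0.23, which was 0.07 without WT estrus 2. With any 1 WT library left out, the medians of these 4 lists stayed between -0.13 and 0.34. In the KO libraries 54 of the 78 oxidative phosphorylation genes rose, beside 7.67% of all genes, with a median of 0.62, and the cytosolic ribosomal protein genes had a median of 0.54. These KO counts rest on the same 2 KO diestrus libraries as the total of 2524.

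**Figure D4:**
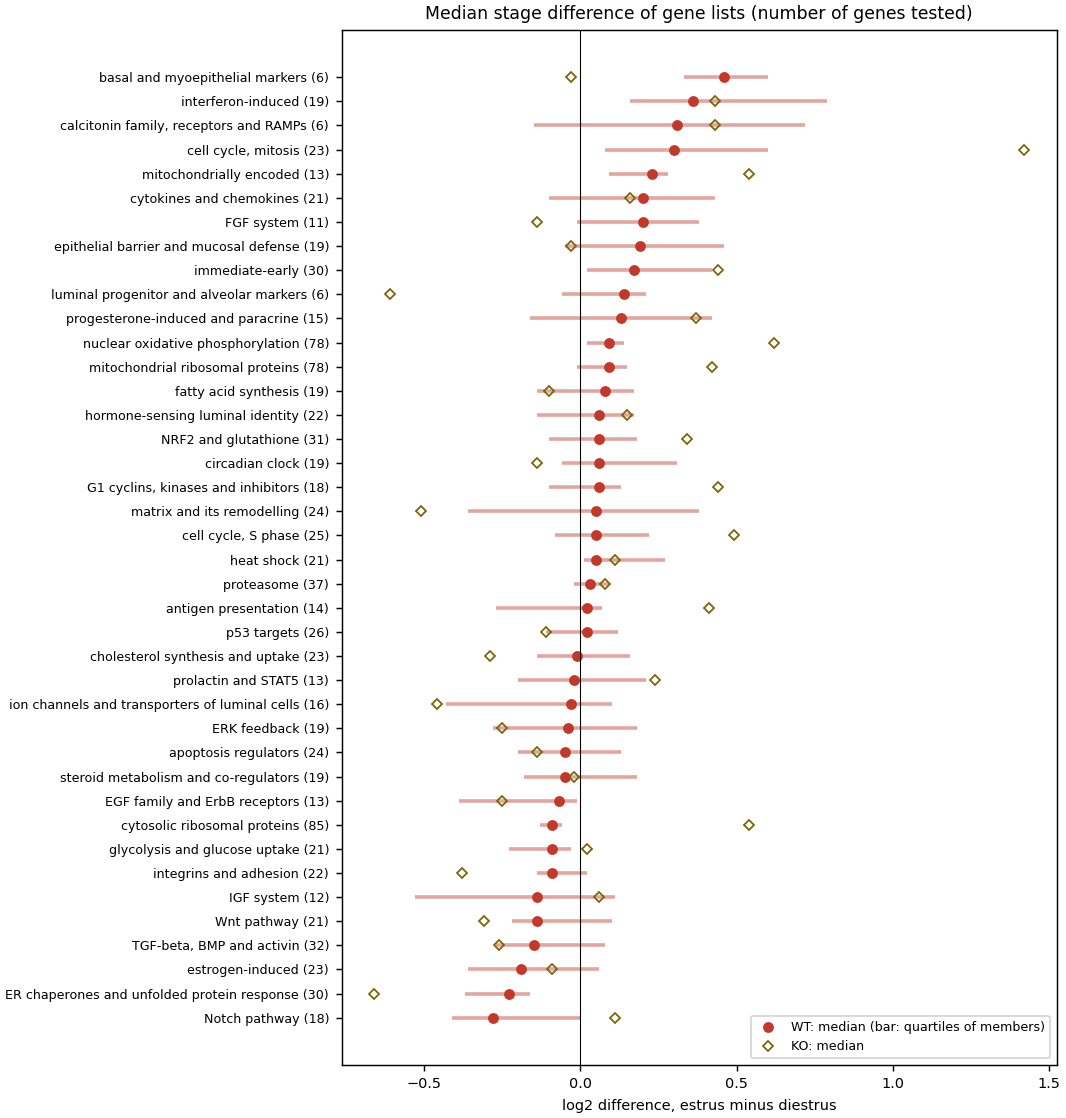
Median log2 difference, estrus minus diestrus (horizontal axis), of the 40 gene lists with at least 5 tested genes, with the number tested in brackets. Filled points are WT medians with bars from the lower to the upper quartile of the members, and open diamonds are KO medians. WT medians run from -0.28 to 0.46, while the KO median of the mitosis list reaches 1.42.

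Across all 15180 genes the WT and KO stage differences correlated with r = 0.288 (Spearman 0.343), a description over genes that are not independent replicates. The SD of the log2 differences was 0.366 in WT and 0.651 in KO. Genes higher at estrus in KO had a median log2 difference of 0.844 there and 0.146 in WT, where 933 of 1165 were above 0. For genes lower at estrus in KO the medians were -0.823 and -0.144, with 1110 of 1359 below 0 in WT. Both sets were chosen by the test in KO, which selects for large KO differences and not for large WT ones. The gap between the KO and WT medians is therefore partly due to the choice. The WT sign was that of KO in 80.9% of the genes called in KO and in 63.6% of all genes. The test of the difference between the 2 genotypes itself called no gene (0 of 15180, 0%), with 2150 genes at an unadjusted p under 0.05 in limma and a smallest adjusted p of 0.0812. A smaller stage difference in WT than in KO was therefore not shown for any single gene.

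**Figure D5:**
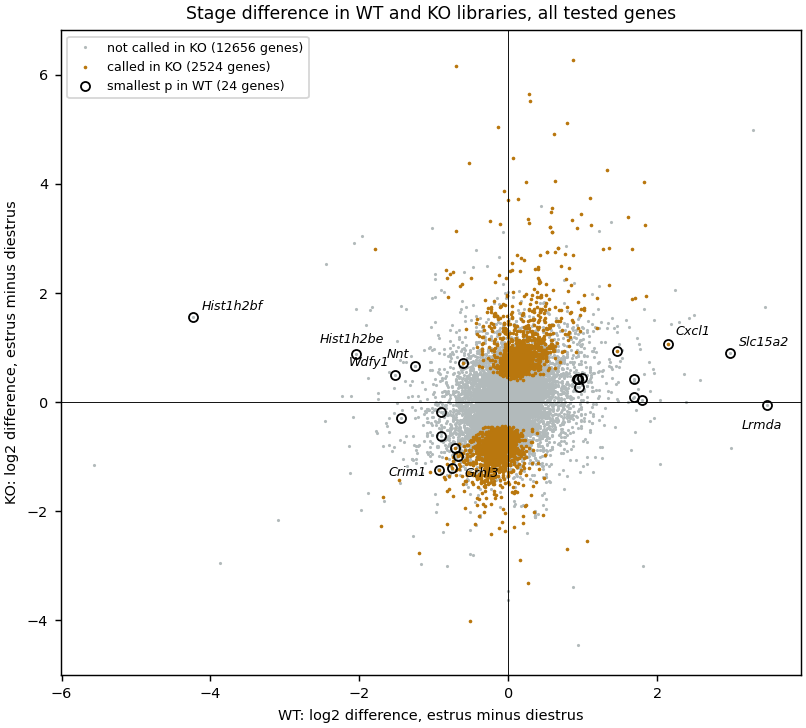
Log2 difference, estrus minus diestrus, of each of the 15180 tested genes in WT (horizontal axis) and in KO libraries (vertical axis). Points coloured brown are the 2524 genes called in KO, and open circles are the 24 genes with the smallest p in WT. Of these 24, 18 have the same sign in KO, beside 63.6% of all tested genes.

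Of the 588 genes at an unadjusted p under 0.05 in WT, 172 were called in KO and 166 of these had the same direction, 86 higher and 80 lower at estrus. Over all tested genes, 16.6% were called in KO, and 80.9% of those had the same sign in WT. Both contrasts use the same spread for a gene, so a gene with a small spread enters both sets more readily. The following genes were taken from the 166 after their values were seen. Dhrs3, a retinaldehyde reductase, was at 866, 1359 and 1163 at estrus and at 568 and 714 at diestrus in WT, and Retsat, a retinol saturase, was at 565, 753 and 599 against 490 and 431. Il17re, the receptor for interleukin 17C, was at 849, 769 and 797 against 603 and 559. Ubd, an inflammation-induced ubiquitin-like protein, was at 340, 397 and 422 against 128 and 220. All 4 were higher at estrus without overlap in WT, each with a WT adjusted p of 1, and passed the test in the same direction in KO.

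Of the genes lower at estrus in both, Cebpg, a bZIP transcription factor of the amino acid stress response, was at 539, 550 and 608 against 798 and 853. Golt1b, a protein of transport to the Golgi, was at 517, 513 and 484 against 653 and 759. B4galt1, the galactosyltransferase that also serves lactose synthesis, was at 1695, 2249 and 1686 against 2725 and 2469. Afap1, an actin filament-associated protein, was at 1087, 958 and 993 against 1443 and 1625. In these 4 the KO log2 differences were -0.79, -0.72, -0.64 and -1.09, beside -0.55, -0.48, -0.48 and -0.60 in WT. The WT adjusted p was 1 in each.

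Among the 24 genes with the smallest p, 18 had the same sign in KO, 6 of which passed the test there, and 1 (Dynlt1b) passed in the opposite direction. The 6 were Cxcl1, Reg3g, Crim1, Kif5c, Snx13 and Grhl3. Over all tested genes, 63.6% had the same sign in WT and KO, and 16.6% were called in KO. The Plac9 and Tmem254 copies among the 24 are not separate observations.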

How the data were processed

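RNA of sorted mammary cells was sequenced in 10 libraries, and 5 WT libraries form the main comparison. Per the submitters' processing notes the tools were STAR, HTSeq and DESeq2 with the mm10 genome. Versions and settings are not given in the sources used here. What the authors deposited is a score for every gene in every library: normalized read counts, rounded to integers and not scaled by gene length. Depth is therefore known as normalized totals only.

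Symbols and positions came from GENCODE M21 (26249 of 26312 genes matched). Values were used as log2(value + 1). The model (limma 3.58.1, R 4.3.3) had a mean for each of the 4 groups, used the 10 libraries together and let the spread depend on expression level. Two-sided contrasts were adjusted (Benjamini-Hochberg) over the 15180 genes with a mean of at least 10. The groups and lists, and the members of each, were chosen with earlier results of these data known, and no set test was run. In each direction the rule named the 12 genes with the smallest p, a mean of at least 50 in WT, no predicted-gene symbol and no overlap. It also named listed genes (those of highest mean where none was called) and the hormone and sort genes. Promoter motifs were to be searched in genes that passed, and none did. RefSeq promoters matched 10193 tested genes by symbol. The fit was checked on simulated data. Alternatives were other pseudocounts (0.5, 5), filters (none, a mean of at least 50), scalings and spread models, removal of length and GC trends, WT alone, a replicate block and each library left out. Figures were drawn with matplotlib 3.10.9. A result on 1 gene is not reported here.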

Additional observations from a re-analysis of the deposited data

Results flagged for a closer look

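In 5 of the 118 genes named by the rule, the stage difference ran in opposite directions in WT and KO, with no overlap between stages in either genotype. The same count was not made over all tested genes, so 5 has no background here. Of the 118, 24 were chosen for no overlap in WT, among them Hist1h2bf, Hist1h2be, Wdfy1 and Dynlt1b. The difference between the genotypes (WT minus KO, log2) was -5.80 for Hist1h2bf, -2.94 for Hist1h2be, -2.01 for Wdfy1, -1.32 for Dynlt1b and -1.46 for Trbc2, a T-cell receptor constant gene. The test of that difference in limma gave adjusted p-values of 0.165, 0.165, 0.165, 0.0935 and 0.229, so none passed. For Hist1h2bf and Hist1h2be, KO estrus 2 stood at 576 and 686, and the other KO estrus libraries at 53 and 57 and at 223 and 230.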

How the results depend on the processing

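The WT count of 0 was 1 with library weights (Lrmda) and 0 to 6 with each library left out, and 0 in the other fits without a block. Genes at an unadjusted p under 0.05 numbered 588, and 299 to 982 with a library left out, 1059 without a filter and 932 with library weights. The KO count of 2524 was 1626 without a filter, 1489 with length and GC trends removed, 3884 with library weights and 39 to 2894 with a library left out. The interaction count of 0 was 3 with quantile normalization, 6 with library weights and 0 to 3 with a library left out. The cause of these moves was not tested. With the replicate block, WT called 1 gene (Cxcl1, log2 difference 2.04, adjusted p = 0.0426), KO 1837 and the interaction 1. The labels share the numbers 1 and 2 only, and same-numbered WT libraries deviated with r = -0.131 and -0.132, so the numbers were not taken as pairs. Of single KO libraries, leaving out KO estrus 2 let Hist1h2bf pass in WT (adjusted p = 0.00287), and leaving out KO estrus 1 or 3 let Lrmda pass (0.0383 and 0.0466). The sign of the difference held in all 22 alternatives for each of the 24 genes with the smallest p. These genes were chosen for no overlap between stages in WT. Leaving out a library or changing the pseudocount, filter or spread model could therefore not reverse their sign. Depth limits low genes most.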
